A study of Mus musculus with 18 samples.

Results

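The genes described here are 9 that let phagocytes recognise dying cells and shed membrane: the receptor tyrosine kinases Axl, Mertk and Tyro3 (the TAM receptors), their ligands Gas6 and Pros1, the bridging protein Mfge8, the integrin subunits Itgav and Itgb5, and the scavenger receptor Cd36. They were picked by name, with earlier results of these data known, and all 9 were found among the 55487 genes of the count table. RNA was sequenced from dissociated mouse retina after flow sorting for live cells (negative for the dye DAPI) with or without CD11b, an integrin chain found on microglia and the rest of the myeloid lineage. The CD11b-positive fraction is called microglia and the CD11b-negative fraction is called retina. There were 5 microglia and 5 retina libraries from mice labelled Bmal1-mg/-mg, called knockout, and 4 microglia and 4 retina libraries from mice labelled Bmal1f/f, called control, which carry the floxed allele. Bmal1 is the circadian clock factor whose gene is named Arntl in the table. The driver that removes it, the deleted exons, and the age, sex and hour of collection of the mice are not given in the sources used here, nor is it stated whether CD11b-negative cells carry the deletion or whether each library is 1 animal. The p-values below therefore measure only the spread between these libraries.

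TAM receptors do not bind dying cells directly: Gas6 and Pros1 hold on to phosphatidylserine exposed on the dying cell with one end and to the receptor with the other. Mfge8 makes the same kind of bridge to the integrin formed by the Itgav and Itgb5 proteins, and Cd36 binds oxidised lipids and cooperates with that integrin. In the eye these genes are best known from the pigment epithelium, where Mertk and the integrin act in the daily removal of photoreceptor outer segment tips, and from microglia, which use Axl and Mertk to clear apoptotic neurons.

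Library totals ran from 32277156 to 47563119 reads counted in genes, and all levels are given as CPM (read counts scaled to the size of the library), adjusted by TMM factors over the 18 libraries. The summed level of 13 microglia markers was 45644 to 49340.4 CPM in knockout microglia and 44035 to 48592 CPM in control microglia. In retina that sum was 8.15 to 22.3 CPM in knockouts and 14.0 to 23.7 CPM in controls. Of the markers, P2ry12, Fcrls, Gpr34 and Itgam, the gene of CD11b, had 0 reads in every knockout retina library, and Fcrls, Siglech, Gpr34 and Aif1 had 0 in every control retina library. In the retina fraction rod markers had by far the largest sum (10 markers, 115598 to 145305 CPM in knockouts and 142903 to 211074 CPM in controls). The microglia libraries also held rod RNA, 6.58% of the retina level in knockouts and 4.98% in controls on average. Arntl itself stood at 2.10 to 24.1 CPM in knockout microglia and 9.89 to 26.9 CPM in control microglia, and at 79.9 to 124 CPM in knockout retina and 94.4 to 136 CPM in control retina. Its level therefore overlapped between genotypes in both fractions (log2 change -0.44 in microglia and -0.35 in retina, adjusted p = 0.999 and 0.392 by edgeR's quasi-likelihood test). A count over the whole gene does not show the loss of single floxed exons. The number of genes with at least 1 read was 17343 to 18438 in knockout microglia and 18654 to 19363 in control microglia, and 18761 to 19713 in knockout retina and 16510 to 18715 in control retina. These ranges did not overlap between genotypes in either fraction, and the order of the genotypes was opposite in the 2 fractions.

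Because Bmal1 acts on DNA through E-boxes, the promoters of the 9 genes were searched for them. The windows ran from 250 bases before to 50 bases after the annotated start, on the GRCm38.p6 build of RefSeq, where all 9 genes had 1 entry. The E-box CACGTG was found in 0 of the 9 windows on either strand, against 7.15% of the 32851 promoters in the table, and the variant CACGTT in 0 of 9, against 4.68%. These letters are not in these windows, which says nothing of binding elsewhere. The GC box GGGCGG, the motif of Sp-family factors, was present in 9 of 9 windows on at least 1 strand, against 35.7% of all promoters. The windows of Axl (chr7:25788684-25788983, minus strand, GC content 60.3%) and Itgb5 (chr16:33829415-33829714, plus strand, GC content 65.7%) are shown because these 2 genes had the smallest p between genotypes, Axl in microglia and Itgb5 in retina. Capitals mark the GC box as GGGCGG or, read on the other strand, CCGCCC, with 2 matches in Axl and 3 in Itgb5.
Axl: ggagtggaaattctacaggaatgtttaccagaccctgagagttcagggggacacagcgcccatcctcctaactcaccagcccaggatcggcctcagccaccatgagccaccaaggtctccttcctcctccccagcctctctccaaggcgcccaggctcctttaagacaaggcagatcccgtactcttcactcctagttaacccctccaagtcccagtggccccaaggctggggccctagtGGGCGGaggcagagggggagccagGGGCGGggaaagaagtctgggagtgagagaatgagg
Itgb5: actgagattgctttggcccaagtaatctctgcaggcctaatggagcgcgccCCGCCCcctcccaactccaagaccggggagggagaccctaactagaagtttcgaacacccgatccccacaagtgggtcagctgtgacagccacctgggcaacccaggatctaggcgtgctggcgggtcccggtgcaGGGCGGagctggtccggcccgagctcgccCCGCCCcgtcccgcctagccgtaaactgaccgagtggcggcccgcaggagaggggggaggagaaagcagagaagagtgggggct

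The levels of most of the genes differed far more between the fractions than between the genotypes. In controls 4 of the 9 genes were higher in microglia than in retina and 1 was lower at an adjusted p under 0.05 in edgeR's quasi-likelihood test, against 22.8% of the 15188 genes tested that were higher and 17.4% that were lower. In knockouts 6 were higher in microglia and 1 was lower, against 23.7% and 21.2% of 15211 genes. The libraries of the fractions did not overlap for 8 of the 9 genes in knockouts, all but Tyro3, and for 6 in controls, against 45.2% and 49.5% of all genes. Fewer cells of a type and less RNA per cell cannot be told apart in bulk samples such as these.

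**Figure D1:**
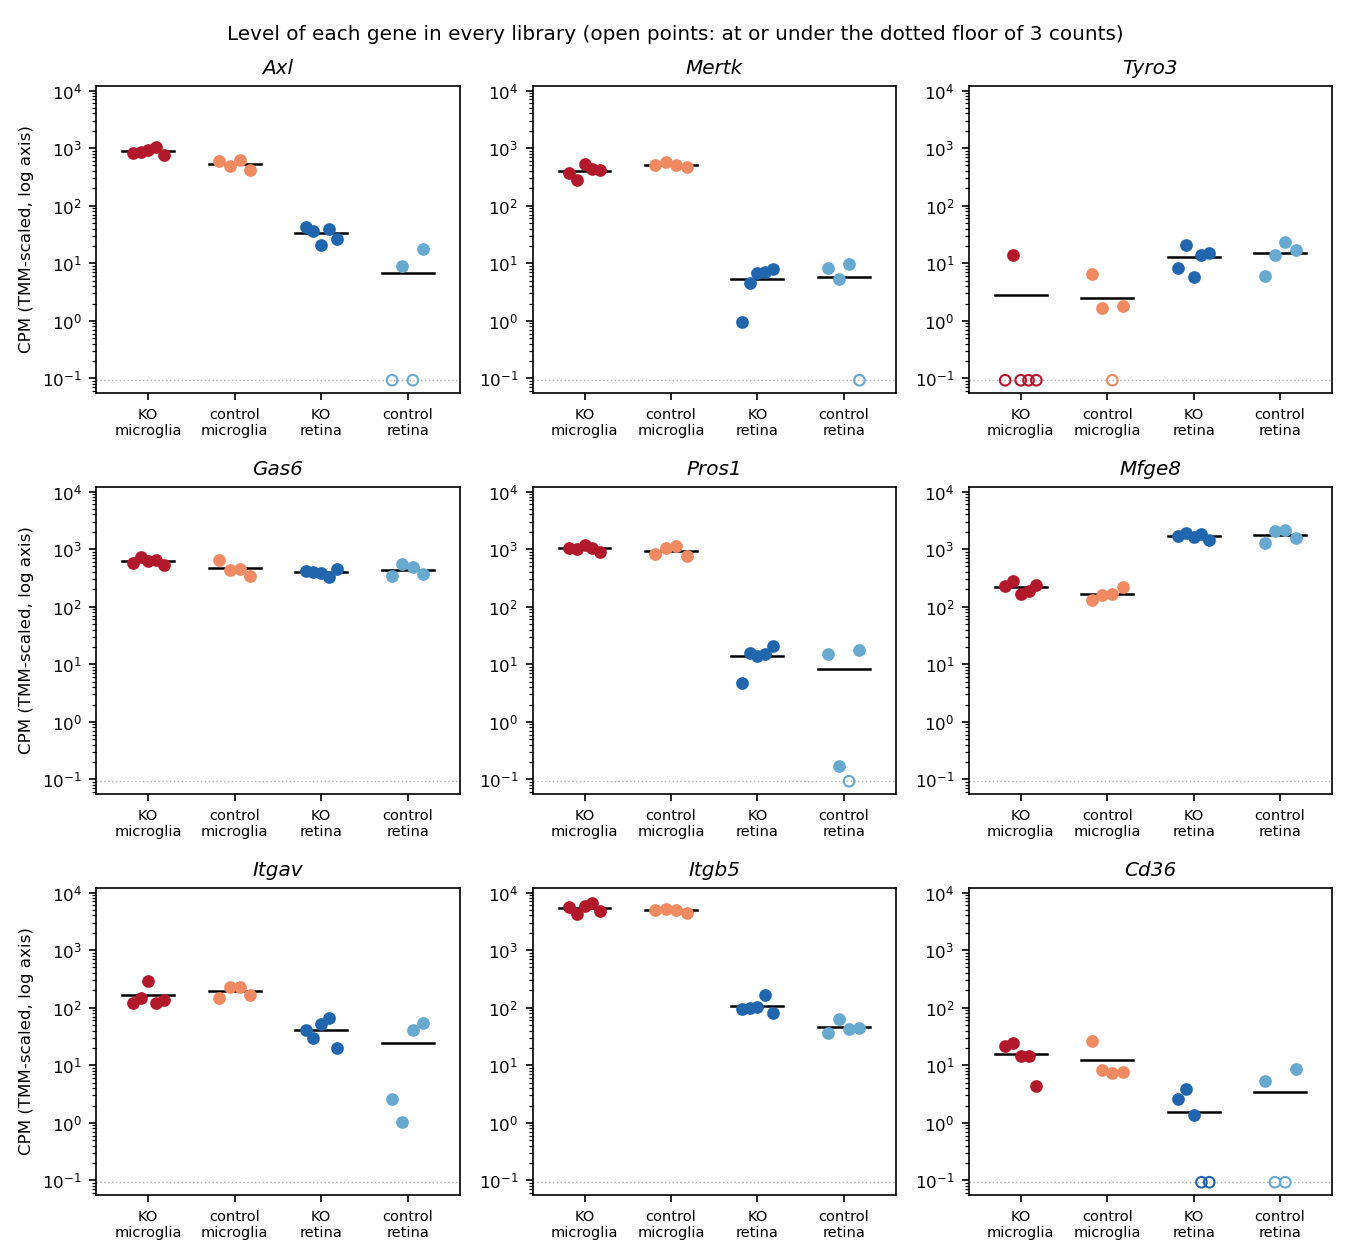
Level of each of the 9 genes in every library, in CPM on a log axis, with knockout left of control in microglia (red shades) and in retina (blue shades); bars are group means and open points lie at or under a floor of 3 counts. Itgb5, Axl, Mertk and Pros1 are high in microglia, Mfge8 is high in retina, and Gas6 stands between 331 and 721 CPM in every library.

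Axl (ENSMUSG00000002602, chr7:25757273-25788705, minus strand, GRCm38) is the TAM receptor that inflammation induces and that binds Gas6. Its level was 832, 861, 917, 1061 and 763 CPM in the 5 knockout microglia libraries and 594, 485, 616 and 424 CPM in the 4 control microglia libraries. In retina it was 43.4, 36.6, 20.4, 39.7 and 26.1 CPM in knockouts and 0, 9.01, 0 and 17.9 CPM in controls. Every microglia library was above every retina library, with log2 differences of 4.66 (SE 0.24, adjusted p = 1.44e-07) in knockouts and 6.26 (SE 1.89, adjusted p = 0.0300) in controls by edgeR's quasi-likelihood test. The control difference lost the call without any of control microglia replicates 1, 2, 3 or 4 or control retina replicate 2 (adjusted p 0.0516 to 0.0640), while its log2 value stayed between 5.84 and 7.43 over all leave-one-out fits.

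Mertk (ENSMUSG00000014361, chr2:128698956-128802894, plus strand), the TAM receptor of steady-state clearance, was at 373, 278, 540.1, 436 and 413 CPM in knockout microglia and 508, 579.6, 506 and 478 CPM in control microglia. In retina it was at 0.947, 4.52, 6.77, 6.94 and 7.82 CPM in knockouts and 8.13, 5.43, 9.76 and 0 CPM in controls. The fractions did not overlap, and edgeR's log2 difference was 6.16 (SE 0.55, adjusted p = 8.50e-06) in knockouts and 6.42 (SE 1.32, adjusted p = 0.00541) in controls. In the eye Mertk is needed above all by the pigment epithelium. Of its 9 markers, Rpe65, Mlana and Ttr were at 0 in every knockout retina library and Lrat and Mlana in every control retina library. The sum of the 9 was 0 to 7.32 CPM in knockout retina and 2.05 to 11.9 CPM in control retina.

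Tyro3 (ENSMUSG00000027298, chr2:119797733-119818104, plus strand), the TAM receptor of neurons, was the one with more reads in retina. It was at 8.35, 20.4, 5.68, 14.2 and 15.01 CPM in knockout retina and 6.03, 13.9, 23.5 and 17.3 CPM in control retina. In microglia it had 500 reads (13.8 CPM) in 1 knockout library and 0 to 2 reads in the other 4, and 6.50, 1.65, 0 and 1.79 CPM in controls. The difference between fractions did not pass edgeR's test in knockouts (log2 -2.27, SE 1.85, adjusted p = 0.342) or controls (log2 -2.66, SE 1.35, adjusted p = 0.154). Without knockout microglia replicate 2, the library with 500 reads, the knockout difference was -9.10 and passed (adjusted p = 0.000114). A library with 0 reads allows up to 3 counts, or 0.0631 to 0.0929 CPM at these depths, for counting error alone.

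The ligands differed from each other. Gas6 (ENSMUSG00000031451, chr8:13465374-13494490, minus strand), the ligand of all TAM receptors, was at 563, 721, 623, 638 and 531 CPM in knockout microglia and 640.1, 433, 446 and 344 CPM in control microglia. In retina it was at 415, 405, 383, 331 and 456 CPM in knockouts and 342, 542, 496 and 374 CPM in controls. It was the gene of the 9 with the smallest difference between fractions: log2 0.04 (SE 0.23, adjusted p = 0.905) in controls, where the ranges overlapped, and 0.55 (SE 0.12, adjusted p = 0.00332) in knockouts, where all 5 microglia libraries were above all 5 retina libraries. Its exons overlap those of Tmem255b on the other strand, and whether counting used strand is not given in the sources used here, but Tmem255b had at most 73 reads in a library.

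Pros1 (ENSMUSG00000022912, chr16:62854307-62929346, plus strand) encodes protein S, the anticoagulant that also serves as ligand of Mertk and Tyro3. It was at 1053, 1011, 1167, 1056 and 899 CPM in knockout microglia and 827, 1044, 1134 and 756 CPM in control microglia. In retina it was at 4.81, 15.9, 14.1, 14.9 and 20.9 CPM in knockouts and 15.2, 0.168, 0 and 18.02 CPM in controls. All microglia libraries were above all retina libraries (log2 6.12, SE 0.38, adjusted p = 5.79e-07 in knockouts and 6.77, SE 1.77, adjusted p = 0.0164 in controls, edgeR). Per kb of exon, the ratio of Pros1 to Gas6 in microglia was 0.874 to 1.17 in knockouts and 0.805 to 1.58 in controls. This depended on the length used: per kb of mean transcript length, Pros1 averaged 628 CPM and Gas6 241 CPM in knockout microglia, and Pros1 569 CPM and Gas6 183 CPM in control microglia. In retina the ratio per kb of exon was 0.00723 to 0.0286 in knockouts and 0 to 0.0300 in controls, so that nearly all reads of the pair were those of Gas6.

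Mfge8 (ENSMUSG00000030605, chr7:79133768-79149060, minus strand), the bridge to the integrin, was the highest of the 9 genes in retina per kb of exon. It was at 228, 280.1, 167, 187 and 234 CPM in knockout microglia and 129.7, 158, 163 and 221 CPM in control microglia, against 1724, 1904, 1638, 1796 and 1440.0 CPM in knockout retina and 1299.9, 2088, 2112 and 1588 CPM in control retina. It was lower in microglia in both genotypes (log2 -3.03, SE 0.16, adjusted p = 1.78e-07 in knockouts and -3.44, SE 0.25, adjusted p = 2.19e-05 in controls, edgeR). The microglia level was 12.9% of the retina level in knockouts and 9.47% in controls, where the 10 rod markers stood at 6.58% in knockouts and 4.98% in controls and the 7 cone markers at 7.02% in knockouts and 14.5% in controls. Müller glia markers averaged 655 CPM in knockout microglia and 810 CPM in control microglia, against 2526 CPM in knockout retina and 1540 CPM in control retina. The part of retinal RNA in the Mfge8 reads of microglia was not tested.

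The integrin subunits were unequal in level. Itgb5 (ENSMUSG00000022817, chr16:33829665-33949338, plus strand), the beta subunit, was at 5526, 4292, 5772, 6465 and 4786 CPM in knockout microglia and 4957, 5223, 5054 and 4404 CPM in control microglia, and per kb of exon it was the highest of the 9 genes there. In retina it was at 95.5, 97.8, 102, 166 and 80.3 CPM in knockouts and 36.1, 63.2, 43.2 and 43.5 CPM in controls. The microglia excess was 5.55 on the log2 scale in knockouts (SE 0.24, adjusted p = 5.40e-08) and 6.68 in controls (SE 0.23, adjusted p = 1.30e-06) in edgeR's test. Itgav (ENSMUSG00000027087, chr2:83724397-83806916, plus strand), the alpha subunit shared with other integrins, was at 119, 149, 295, 123 and 138 CPM in knockout microglia and 149.7, 233, 229 and 166 CPM in control microglia. In retina it was at 41.4, 30.1, 51.1, 66.0 and 20.3 CPM in knockouts and 2.62, 1.04, 40.5 and 54.0 CPM in controls. The microglia libraries were all above the retina libraries. The difference passed edgeR's test in knockouts (log2 1.90, SE 0.37, adjusted p = 0.00174) and missed it in controls (log2 2.94, SE 1.12, adjusted p = 0.0693), where DESeq2 called it (adjusted p = 0.00653) with 47.1% of all genes. Per kb of exon, microglia had 59.1 to 159 times as much Itgb5 as Itgav in knockouts and 66.6 to 100.1 times as much in controls. In knockout retina the ratio was 6.02 to 11.99, and in control retina it spread from 2.44 to 185. The size of the ratio depended on the length used. Per kb of mean transcript length, Itgb5 averaged 3749 CPM and Itgav 68.5 CPM in knockout microglia. In control microglia Itgb5 averaged 3428 CPM and Itgav 80.9 CPM by that length. An antisense transcript, Gm13684, overlaps exons of Itgav and had at most 189 reads in a library.

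Cd36 (ENSMUSG00000002944, chr5:17781690-17888801, minus strand), a receptor for oxidised lipids, was low everywhere. It was at 21.8, 24.3, 14.5, 14.5 and 4.39 CPM in knockout microglia and 26.1, 8.44, 7.38 and 7.68 CPM in control microglia, and at 2.59, 3.81, 1.38, 0 and 0 CPM in knockout retina and 5.26, 0, 0.0521 and 8.57 CPM in control retina. Neither fraction difference passed edgeR's test (log2 3.27, SE 1.44, adjusted p = 0.0883 in knockouts and 1.79, SE 1.63, adjusted p = 0.418 in controls). DESeq2 called the knockout difference (adjusted p = 0.0276) with 52.2% of all genes, and all 5 microglia libraries were above all 5 retina libraries.

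Per kb of exon, the order of mean levels in knockout microglia was Itgb5 (1511 CPM per kb), Pros1 (254), Gas6 (241), Axl (176), Mertk (94.1), Mfge8 (46.7), Itgav (15.3), Cd36 (4.43) and Tyro3 (0.448). Pros1 and Gas6 did not differ beyond their SDs of 23.5 and 28.9. In control microglia the order was the same except that Mertk (119 ± 10.003, SD, n = 4) came before Axl (105 ± 18.1), and neither these 2 neighbours nor Pros1 (230.0 ± 43.6) and Gas6 (183 ± 48.9) differed beyond their spread. In retina the order began with Mfge8 (362 CPM per kb in knockouts and 378 in controls), Gas6 (156 and 172) and Itgb5 (30.5 and 13.1) in both genotypes. Below these, knockout retina had Axl (6.61 ± 1.91, n = 5), Itgav (3.89), Pros1 (3.45), Tyro3 (2.05), Mertk (1.25) and Cd36 (0.433), while in control retina no neighbours below Itgb5 were further apart than their SDs, the means running from 2.45 for Tyro3 to 0.967 for Cd36. With the mean transcript length in place of the exon length, Axl passed Gas6 and Mfge8 passed Mertk in knockout microglia, and Axl passed both Mertk and Gas6 in control microglia.

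In microglia, the comparison asks how these genes differ between the genotypes. Axl separated the genotypes: the lowest knockout library (763 CPM) was above the highest control library (616 CPM), and the means were 887 ± 112 CPM in knockouts (SD, n = 5) and 529.7 ± 90.9 CPM in controls (n = 4). Of the 14835 genes tested, 1.88% had knockout libraries all above the control libraries. The fold change was 1.67 (95% interval 1.39 to 2.02), with a log2 change of 0.74 (SE 0.14), but the adjusted p of edgeR's quasi-likelihood test was 0.108. In all, 0 of the 9 genes passed that test, against 0.115% of all genes. At an unadjusted p under 0.05 there were 2, Axl and Gas6, against 5.76% of all genes. DESeq2 called Axl (adjusted p = 1.38e-05) together with 1.6% of all genes. The authors' test called 0.592% of its 12841 genes. Their deposited table lists Axl at a log2 change of 0.72 with an adjusted p of 0.000112. Limma voom, which called 0.175% of all genes, did not call it (adjusted p = 0.0834), nor did any of the 9 leave-one-out fits of edgeR (log2 0.65 to 0.83, adjusted p 0.109 to 0.275). The statement that Axl differed in microglia thus holds under DESeq2 and the authors' test and not under edgeR's quasi-likelihood test or limma.

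Other measurements of the microglia libraries were set beside the Axl difference. The summed level of 13 markers of border macrophages and monocytes, which also use Axl, was 1390.2 to 2124 CPM in knockout microglia and 552 to 1779.8 CPM in control microglia, and each of the 13 had reads in at least 1 library of either group. With the mean level of these markers as a covariate, the log2 change of Axl was 0.76 (SE 0.15, adjusted p = 0.268 by edgeR). With the number of genes with a read as a covariate it was 0.49 (SE 0.24, adjusted p = 0.863). That number did not overlap between genotypes, and its part in the result was not tested further. Among the microglia, 1 knockout and 1 control library had Xist reads (40.3 and 42.0 CPM, others at most 0.0516 CPM), and without these 2 libraries the log2 change was 0.82 (SE 0.16, adjusted p = 0.199).

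Mertk moved the other way from Axl without passing the test. Its mean was 408 ± 95.4 CPM in knockout microglia and 518 ± 43.4 CPM in control microglia (log2 -0.34, SE 0.17, adjusted p = 0.897 by edgeR), and 4 of 5 knockout libraries were below the lowest control library. Within a library, reads of Axl per read of Mertk were 2.23, 3.10, 1.70, 2.43 and 1.85 in knockout microglia and 1.17, 0.837, 1.22 and 0.886 in control microglia. The ratios did not overlap between genotypes and averaged 2.26 ± 0.551 in knockouts (SD, n = 5) and 1.03 ± 0.194 in controls (n = 4). This ratio is free of the scaling between libraries. It was chosen after the values of both genes were seen and carries no test. Per kb of exon, Axl made up 59.4 to 72.0% of all TAM receptor signal in knockout microglia and 41.8 to 51.2% in control microglia. Mertk made up nearly all of the rest, since Tyro3 was at most 0.939% in any microglia library. These shares depended on the length used. Per kb of mean transcript length, Axl averaged 524 CPM and Mertk 116 CPM in knockout microglia. In control microglia Axl averaged 313 CPM and Mertk 147 CPM by that length.

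**Figure D2:**
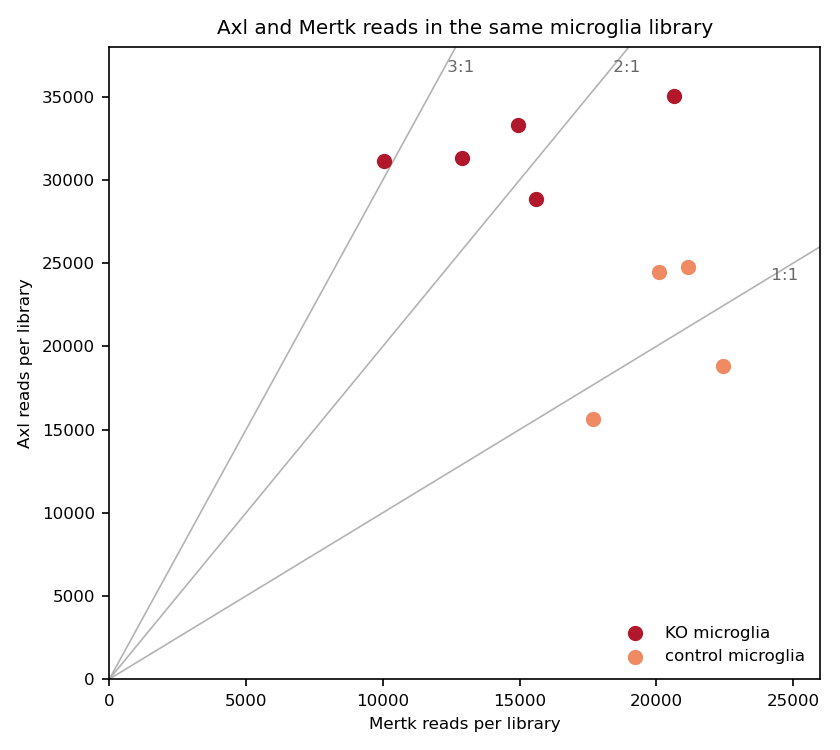
Reads of Axl (vertical axis) against reads of Mertk (horizontal axis) in each microglia library, both on linear axes from 0, with grey lines at 1, 2 and 3 Axl reads per Mertk read; the reads are not divided by gene length. The 5 knockout libraries lie between 1.70 and 3.10 and the 4 control libraries between 0.837 and 1.22.

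The ligands and the bridge had higher means in knockout microglia, with overlapping ranges. Gas6 averaged 615 ± 73.5 CPM in knockouts and 466 ± 125 CPM in controls (log2 0.40, SE 0.17, edgeR adjusted p = 0.840), and the control range reached 640.1 CPM through replicate 1. Mfge8 averaged 219 ± 44.1 CPM in knockouts and 168 ± 38.1 CPM in controls (log2 0.38, SE 0.19, adjusted p = 0.900). For Pros1 the log2 change was 0.14 (SE 0.13), which bounds its fold change between 0.927 and 1.31. Itgb5 was bounded between 0.935 and 1.28 (log2 0.13, SE 0.12), the narrowest interval of the 9. Itgav (log2 -0.24, SE 0.29), Cd36 (0.35, SE 0.58) and Tyro3 (0.15, SE 2.27) were measured too loosely for such a bound, Tyro3 resting on the single knockout library with 500 reads.

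In retina, the comparison asks whether the CD11b-negative cells differed between mice of these genotypes. Itgb5 did: its mean was 108 ± 33.5 CPM in knockout retina (SD, n = 5) and 46.5 ± 11.7 CPM in control retina (n = 4), a fold change of 2.26 (95% interval 1.64 to 3.13, log2 1.18, SE 0.24, adjusted p = 0.0461 by edgeR's quasi-likelihood test). The lowest knockout library (80.3 CPM) was above the highest control library (63.2 CPM). Itgb5 was the 1 gene of the 9 past the threshold, against 1.66% of the 15332 genes tested. The authors' test called 5.58% of its 13330 genes. Their deposited table lists Itgb5 at a log2 change of 1.18 with an adjusted p of 0.000336. DESeq2 (adjusted p = 0.000133) and limma voom (0.0382) also called it, with 7.72% and 2.37% of all genes, and limma voom with quality weights did not (0.0701, 1.43% of all genes). The call was close to the threshold: it held in 2 of the 9 leave-one-out fits, without control replicate 2 and without knockout replicate 5, and was lost without any of the other 7 libraries (adjusted p 0.0595 to 0.119), while the log2 change stayed between 1.00 and 1.37. It was also lost with no filter on low counts (adjusted p = 0.0755). In retina, knockout replicate 1 had Xist reads (12.5 CPM) and no control library had more than 0.0766 CPM; without that replicate the log2 change of Itgb5 was 1.22 (adjusted p = 0.0832).

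Cell type markers differed between the retina groups too. Summed rod markers were lower in knockouts (115598 to 145305 CPM against 142903 to 211074 CPM in controls, with 4 of 10 called lower), and cone markers higher (2653 to 6323 CPM against 781 to 1783 CPM, 4 of 7 called). Bipolar cell markers were at 1534 to 2849 CPM in knockouts and 437 to 957 CPM in controls (5 of 8 called), Müller glia markers at 1827 to 3364 CPM and 914 to 2277 CPM (0 of 8), and endothelial markers at 247 to 458 CPM and 85.1 to 226 CPM (1 of 8). With the rod marker level as a covariate, the log2 change of Itgb5 was 1.04 (SE 0.54) and its adjusted p 0.999. With the number of genes with a read as a covariate it was 1.33 (SE 0.42, adjusted p = 0.456). The part of the cell mix in the Itgb5 difference was not tested beyond these fits.

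Microglia carried over into the retina fraction were measured directly. The 13 microglia markers stood at 0.0172 to 0.0471% of their microglia level in knockout retina and at 0.0303 to 0.0513% in control retina, so the summed level was not higher in knockouts. Single markers went both ways: Olfml3 averaged 0.0733% in knockout retina and 0.00107% in control retina, P2ry12 0% in knockout retina and 0.0544% in control retina, and C1qa 0.00217% in knockout retina and 0.0274% in control retina. The covariate for microglia marker level rested on only 3 of the 13 markers, those that passed the filter on low counts. With that covariate, the log2 change of Itgb5 was 1.38 (SE 0.27, adjusted p = 0.0821 by edgeR). Itgb5 stood at 1.495 to 3.10% of its microglia level in knockout retina and at 0.736 to 1.29% in control retina, above the marker sum in every library. Axl stood at 2.31 to 4.90% in knockout retina and 0 to 3.37% in control retina, Mertk at 0.232 to 1.92% and 0 to 1.88%, and Pros1 at 0.464 to 2.01% and 0 to 1.92%. The 13 border macrophage and monocyte markers summed to 16.5 to 19.0 CPM in knockout retina and 0.224 to 5.10 CPM in control retina. Only 2 of the 13 passed the filter on low counts in retina, and 0 were called by edgeR. Of these 13, F13a1, Cd163, Pf4, Ms4a7, Ccr2 and S100a9 were at 0 in every knockout retina library, and 8, among them F13a1, Cd163, Pf4 and Lyz2, in every control retina library. The part of this difference in the results for Itgb5 and Axl was not tested.

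**Figure D3:**
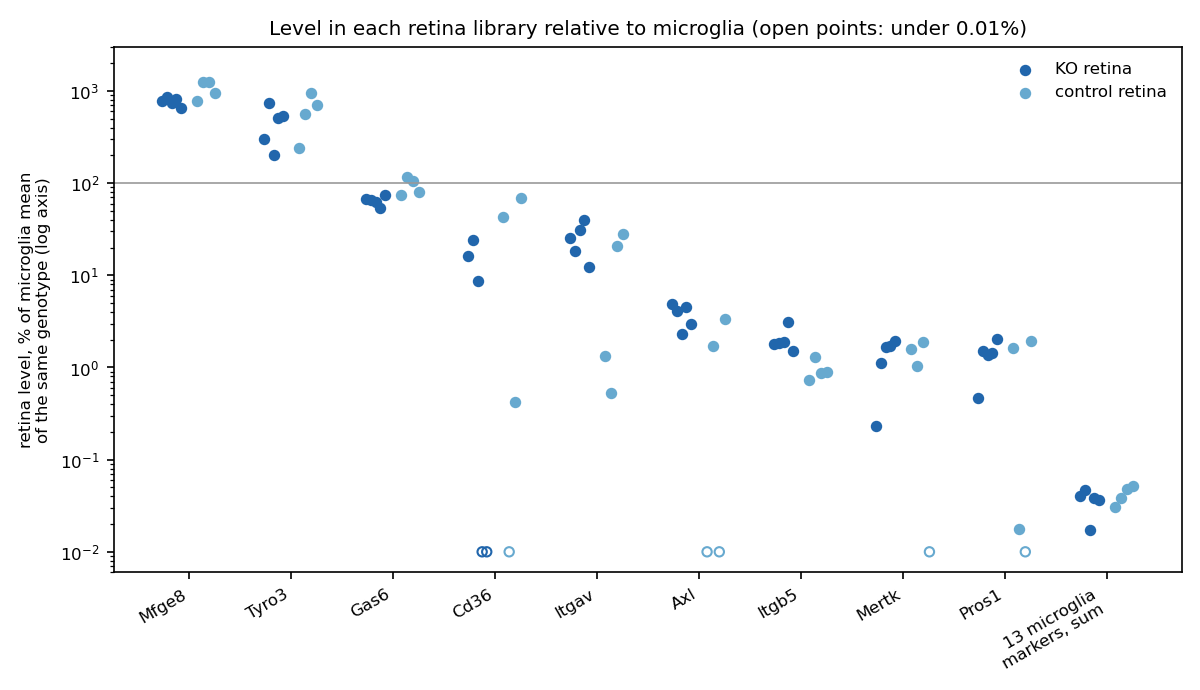
Level in each retina library as a percentage of the mean microglia level of the same genotype, on a log axis, for the 9 genes and for the sum of 13 microglia markers; dark points are knockout and light points control retina, open points lie under 0.01%, and the grey line marks equal levels. Mfge8 and Tyro3 lie above the line, Gas6 near it, and Itgb5 at 1.495 to 3.10% in knockouts and 0.736 to 1.29% in controls, above the marker sum.

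Axl was the second gene whose retina libraries did not overlap between genotypes, at 20.4 to 43.4 CPM in knockouts and 0 to 17.9 CPM in controls, against 6.02% of all genes with knockout libraries all higher. Its log2 change of 2.27 had an SE of 1.51, with an adjusted p of 0.596 in edgeR. Of the 4 control libraries 2 had 0 reads and the others 322 and 865. Such gaps recurred in control retina: Mertk had 0 reads in 1 of 4 libraries, Pros1 0 and 6 reads in 2 of 4, and Itgav 37 and 137 reads in 2 of 4 where the others had 1555 and 2617. In knockout retina no library had 0 reads for these 4 genes, and the lowest count was 37 for Mertk. Cd36 had gaps in both genotypes, with 0 reads in 2 of 5 knockout libraries and 0 and 2 reads in 2 of 4 control libraries.

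The other genes did not separate in retina. The precise ones were Gas6 (398 ± 45.9 CPM in knockouts and 439 ± 95.5 CPM in controls, fold change 0.884, interval 0.717 to 1.09) and Mfge8 (1700.4 ± 175 CPM and 1772 ± 397 CPM, fold change 0.934, interval 0.765 to 1.14). For Mertk (log2 -0.15, SE 1.24), Pros1 (0.71, SE 1.39), Itgav (0.72, SE 0.96), Cd36 (-1.20, SE 2.01) and Tyro3 (-0.29, SE 0.48) the intervals were wide. Even the narrowest of them, that of Tyro3, ran from a fold change of 0.424 to 1.57.

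Whether the genotype difference itself differed between fractions was tested over all 18 libraries, as the change in microglia minus the change in retina. For Itgb5 this was -1.09 (SE 0.28, adjusted p = 0.0994 by edgeR's quasi-likelihood test), with an unadjusted p of 0.00118, and for Gas6 0.54 (SE 0.25, adjusted p = 0.381). Of the 9 genes 0 passed, against 0.469% of the 18128 genes tested, and 2 had an unadjusted p under 0.05, against 12.5%. DESeq2 called Itgb5 (adjusted p = 0.0109) with 6.01% of all genes. Limma voom called 0 of the 9 and 0.8% of all genes, and with quality weights 0 of the 9 and 0.706% of all genes. For Axl, which was higher in the means of both fractions, the difference of changes was -1.56 with an SE of 1.44.

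**Figure D4:**
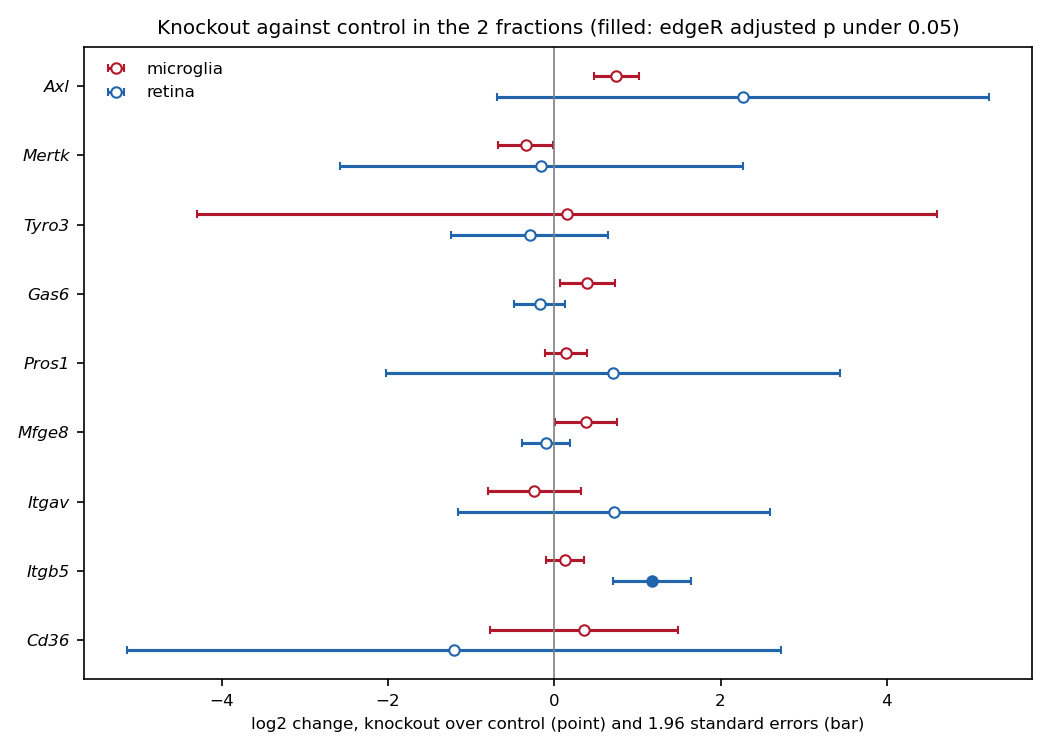
Log2 change of each gene in knockout over control (points) with bars of the 95% interval, in microglia (red) and retina (blue); a filled point passed an adjusted p under 0.05 in edgeR. Only Itgb5 in retina is filled, at 1.18, and the retina bars of Axl, Mertk, Pros1 and Cd36 are wide.

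Genes around this pathway were described through 10 lists with 102 members: other phosphatidylserine receptors, other reported TAM ligands, vitamin K carboxylation and shedding, other integrin subunits, other scavenger receptors, engulfment signalling, cytokine feedback, phosphatidylserine exposure, nuclear receptors and Maf factors, and cargo handling. In microglia 0 of the 91 tested passed edgeR's quasi-likelihood test, and 8 had an unadjusted p under 0.05 (5.76% of all genes did). A positive log2 change was found for 50 of the 91, where the median change of all genes was -0.01. DESeq2, which called 1.6% of all genes, called 3 (Ucp2, Rac2 and Cd68), limma voom, with 0.175%, called 0, and limma voom with quality weights, which called 0.31% of all genes, called 1 (Ucp2). Closest to the threshold was Ucp2, a mitochondrial carrier that macrophages need for continued uptake (1091 ± 74.8 CPM in knockouts and 849 ± 26.2 CPM in controls, log2 0.36, SE 0.07, adjusted p = 0.114). Rac2, the GTPase of haematopoietic cells that drives actin during engulfment, had 356 ± 10.4 CPM in knockouts and 290.3 ± 18.7 CPM in controls (log2 0.29, SE 0.07, adjusted p = 0.316). Tyrobp, the signalling adaptor of Trem2, had a log2 change of 0.29 (SE 0.11, adjusted p = 0.771), and Trem2 itself 0.07 (SE 0.06). The lysosomal scavenger receptor Cd68 had 0.21 (SE 0.07, adjusted p = 0.605). Ano6, a lipid scramblase, had -0.37 (SE 0.11, adjusted p = 0.544).

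The microglia medians of the lists were 0.24 for phosphatidylserine receptors (14 tested), -0.08 for TAM ligands (3), 0.03 for carboxylation and shedding (5), 0.31 for integrin subunits (5), 0.34 for scavenger receptors (10), -0.06 for engulfment signalling (19), -0.10 for cytokine feedback (7), -0.19 for phosphatidylserine exposure (8), 0.03 for nuclear receptors and Maf factors (8) and 0.18 for cargo handling (12), where the median of all genes was -0.01. The most one-sided of the 10 lists were the scavenger receptors, with 9 of 10 positive changes, and the exposure genes, with 1 of 8. These signs and the medians were not tested, and they count genes at low levels like any other. Among the 5 integrin subunits, Itgb8 averaged 1.39 CPM in knockout microglia and 0.144 CPM in control microglia. Itga2b averaged 2.85 CPM in knockout microglia and 0.968 CPM in control microglia. Both had positive changes, so the integrin median of 0.31 rests in part on them. Neither list held a gene past the threshold in edgeR, while DESeq2 called Cd68 of the scavenger receptors. Mrc1 and Cd163, which are scavenger receptors and border macrophage markers at once, had log2 changes of 1.04 (SE 1.07) and 1.46 (SE 1.61).

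In retina 0 of the 73 list genes tested passed edgeR's test, 13 had an unadjusted p under 0.05 (14.2% of all genes did), and DESeq2 called 6 (7.72% of all genes). Limma voom called 0 with or without quality weights (1.43% and 2.37% of all genes). The nearest were Adgrb1, the phosphatidylserine receptor BAI1 of neurons and glia (13.7 ± 4.39 CPM in knockouts and 4.40 ± 1.46 CPM in controls, log2 1.60, SE 0.41, adjusted p = 0.0950), and Lrp1, a large endocytic receptor (64.3 ± 24.5 CPM and 23.6 ± 10.03 CPM, log2 1.41, SE 0.38, adjusted p = 0.108). The engulfment genes Elmo2 (log2 0.67, SE 0.21, adjusted p = 0.159) and Rac1 (0.44, SE 0.15, adjusted p = 0.187) had positive changes. Tulp1, a photoreceptor protein reported as a TAM ligand, had 1586 ± 194 CPM in knockouts and 2073 ± 405 CPM in controls (log2 -0.42, SE 0.14, adjusted p = 0.196). Of the receptor list 8 of 17 genes were tested and of the engulfment list 14 of 20. Stab2 (mean 3.37 CPM in knockout retina) and Dock5 (2.76 CPM) had 0 reads in all 4 control retina libraries and were tested only through their reads in knockouts, so no count of signs or median is given for the lists in retina. In the test of the difference between fractions 0 of 95 list genes passed edgeR, 12 had an unadjusted p under 0.05 (12.5% of all genes did), DESeq2 called 3 (6.01% of all genes), limma voom 1 (0.8%) and limma voom with quality weights 0 (0.706%).

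The genes whose levels ran most nearly with each of the 9 were found by Pearson correlation of log2 CPM over the 18 libraries, among 8937 or 8938 other genes with a mean of at least 10 CPM. The 18 points fall into 2 fractions far apart in most genes and share their libraries, so r describes mainly that contrast. Nearest to Axl were Magt1 (r = 0.993), Itga9 (0.991) and Tnfaip8 (0.988), and nearest to Itgb5 were Ctsz (0.996), Cyfip1 (0.996) and Psap (0.996). The first gene for Mertk was Diaph2 (0.973), for Pros1 Nrp1 (0.989), for Itgav Ezr (0.972), for Mfge8 Eno1 (0.997) and for Tyro3 Fgd1 (0.972). For Gas6 the highest r was 0.817, with Naa50, and for Cd36 it was 0.891, with Ppm1m. None of the 9 was among the 3 nearest genes of another.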

How the data were processed

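Sorted retinal cells of 18 samples were sequenced as paired reads after cDNA amplification with a SMARTer Ultra Low kit, per the labels' protocols. The authors deposited raw counts per gene. Per the submitters' processing notes, the tools were DRAGEN, STAR 2.7.9a, Subread, featureCounts, edgeR and limma and the build was GRCm38; the strand setting of counting is not given in the sources used here. The authors also deposited tables of their own comparisons with log2 fold changes, log2 mean CPM, likelihood ratio scores and adjusted p-values, which are quoted only where named.

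After 287 duplicate IDs with identical counts were dropped from 55774 lines, 55487 genes were left, 55141 of them in GENCODE M21, whose exon lengths gave the levels per kb. Counts of each pair of groups were fitted with edgeR 4.0.16 (R 4.3.3; filterByExpr, TMM, quasi-likelihood test, Benjamini-Hochberg adjusted p under 0.05); the difference between fractions was fitted over all 18 libraries. Each standard error was taken as the size of the log2 change over the root of its F statistic, and 95% intervals use a normal approximation. The main edgeR fit of each pair of groups was tested on simulated data, and the fit of the difference between fractions was not. Alternatives were DESeq2 1.42.0, limma 3.58.1 voom with and without quality weights, other scaling and filters, covariates and leaving out libraries; the covariates for the number of genes and for microglia markers, and leaving out both microglia libraries with Xist reads, were chosen after seeing the data. Floors of 3 counts cover counting error only. The members and the lists were chosen with earlier results of these data known. All 9 members are named; list genes are named from the up to 4 per list and comparison with the smallest p.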

Additional observations from a re-analysis of the deposited data

Results flagged for a closer look

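Among the groups of 4 or 5 libraries, 4 had 1 library far from the others by Dixon's criterion, which chance meets in about 1 of 20 groups. Tyro3 was at 13.8 CPM in knockout microglia replicate 2 and at 0 to 0.0499 CPM in the other 4. Itgav was at 295 CPM in knockout microglia replicate 3 and at 119 to 149 CPM in the other 4. Itgb5 was at 166 CPM in knockout retina replicate 4 and at 80.3 to 102 CPM in the other 4, and without that library its log2 change in retina was 1.00 (adjusted p = 0.0595 by edgeR). Cd36 was at 26.1 CPM in control microglia replicate 1 and at 7.38 to 8.44 CPM in the other 3.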

How the results depend on the processing

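Of 890 recomputed log2 changes of the 9 genes, 823 kept their direction and their side of the threshold, 32 reversed, 20 lost and 15 gained the call, and the causes were not tested except where the construction shows them. In microglia 17 genes passed edgeR's test between genotypes. The count was 8 with no filter on low counts, 237 with DESeq2, 26 with limma voom, 46 with quality weights, 32 in a fit over all 18 libraries, 4 with the border macrophage covariate, 5 with the gene-number covariate, 4 without knockout and control replicate 1, and 4 to 21 when 1 library was left out. In retina 255 genes passed. The count was 120 with no filter, 1184 with DESeq2, 0 with the rod covariate in edgeR (632 at an unadjusted p under 0.05), 2 with the gene-number covariate, 52 with the microglia marker covariate, and 96 to 342 when 1 library was left out. For the difference between fractions, 85 genes passed, against 1090 with DESeq2, 145 with limma voom, 128 with quality weights and 51 to 143 with 1 library left out. Between microglia and retina, the counts with 1 library left out were 6317 to 7507 in knockouts and 5328 to 5854 in controls.

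In microglia Tyro3 was at -2.88 with limma voom, -3.75 with quality weights, -0.75 with the border macrophage covariate, 1.57 without knockout and control replicate 1, and -0.26 to 1.26 with 1 library left out. With the gene-number covariate Pros1 was at -0.083 and Itgb5 at -0.12. In retina Mertk was at 1.73 with limma voom, 1.99 with quality weights, 0.65 with the gene-number covariate and -0.55 to 0.22 with 1 library left out. With the rod covariate Tyro3 was at 0.39, Gas6 at 0.58, Pros1 at -2.05, Mfge8 at 0.25 and Itgav at -1.49. With the gene-number covariate Gas6 was at 0.31, Pros1 at -2.69, Mfge8 at 0.26 and Itgav at -0.49. In the difference between fractions Tyro3 was at -2.77 with limma voom, -3.47 with quality weights and -6.50 to 1.57 with 1 library left out, and Mertk at -0.60 to 0.18. Gas6 between control microglia and control retina was at -0.12 to 0.17 with 1 library left out.

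Replicate numbers were not treated as pairing samples in the main fits, and whether equal numbers mark the same animal is not given in the sources used here. In replicate 1, Xist was at 42.0 CPM in control microglia but 0.0766 CPM in control retina, so these libraries of equal number did not share Xist. In knockouts it was at 40.3 CPM in microglia and 12.5 CPM in retina of replicate 1. Between the fractions of a genotype, deviations of same-numbered libraries correlated at -0.0149 to 0.0487. Knockout microglia replicates 1, 4 and 5 and control microglia replicates 2 and 4 correlated best with the retina library of their own number. Between genotypes within a fraction, same-numbered libraries correlated at -0.113 to 0.0556. With the replicate number as a block, edgeR called 2 genes in microglia and 0 in retina (2208 at an unadjusted p under 0.05). Between genotypes this block ties libraries of different mice that the labels do not link. Knockout replicate 5 has no control of its number, so calls lost there cannot be read as an effect of pairing. Between microglia and retina the block gave 6350 genes in knockouts and 4436 in controls. For the difference between fractions the block was genotype plus replicate number, and 9 genes passed. In these fits between genotypes Itgb5 in retina was at 1.26 (edgeR adjusted p = 0.143) and Axl in microglia at 0.80 (adjusted p = 0.787). Tyro3 in microglia was at -4.81 and Cd36 in retina at 1.53. Between control microglia and control retina, Axl and Pros1 lost the call with the replicate number as a block (adjusted p = 0.0767 and 0.0568). With genotype plus replicate number as the block, the Tyro3 difference between fractions was at -4.53.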
